A study of Mus musculus with 18 samples.

Results

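Gene expression was compared between 2 regions of intestinal epithelium in mice that had received bone marrow and no added T cells. The comparison used the 6 libraries whose codes carry the marrow-only label and an intestinal region, out of 18 libraries in the series, with 3 libraries coded SI set against 3 coded LI, and took in every gene that was expressed. Recipients were female BALB/cJ mice aged 6 to 8 weeks, which had been lethally irradiated and given 10000000 bone marrow cells alone (BM). A second arm had received the same marrow together with 1000000 T cells (BMT), and its 3 code SI and 3 code LI libraries are used below only for values side by side. Tissue was taken on day 7, so that both regions and both arms share the irradiation and the marrow graft. Neither the donor strain nor the isolation of the epithelium is described in the labels, and nothing states that the 3 libraries of a group came from separate mice.

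The sample titles and the library codes contradict each other: the libraries coded SI are titled large intestine, and those coded LI are titled small intestine. Groups here follow the codes, and the libraries are called code SI and code LI, numbered 002, 004 and 005 in each region. Markers went with the codes, since Fabp6, Lyz1 and Apoa1 (small intestine) were high in every code SI library and Hoxb13, Car1 and Aqp8 (colon) in every code LI library. All directions below depend on that reading, and each fold change is code SI over code LI.

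The intestinal lining is a single sheet of epithelium renewed from stem cells in crypts, and its tasks change along the gut. In the small intestine absorptive enterocytes carry digestive enzymes on their brush border, take up sugars, amino acids and fat, and in the ileum recover bile acids, while Paneth cells at the crypt base release antimicrobial peptides. The colon has no villi and normally no Paneth cells, recovers salt and water, burns short chain fatty acids made by bacteria, and keeps a thick mucus layer. Regional identity is held by transcription factors such as GATA4 on the proximal side and the posterior HOX proteins on the distal side.

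The 6 libraries held 19556124 to 25610937 counts each, all from lane L002, and mitochondrial transcripts took 7.30 to 8.63% of counts in code SI and 9.72 to 10.7% in code LI. Of 14680 genes tested, 2940 (20%) were higher in code SI and 3379 (23.0%) were higher in code LI (edgeR quasi-likelihood test, two-sided, adjusted p below 0.05). At least 4-fold differences were called for 524 genes (3.57%) on the code SI side and 692 (4.71%) on the code LI side. The 524 genes took 10.75, 9.92 and 10.2% of all counts in code SI libraries 002, 004 and 005, against 0.603 to 0.662% in code LI, and the 692 took 0.612 to 0.812% in code SI, against 7.22 to 7.52% in code LI. The 524 include 27 genes with at least 1 CPM (counts scaled to the library total) in every code SI library and no count in code LI, and the 692 include 28 genes with the reverse. These genes passed the filter only through the region where they were found, which fixed the direction of their calls. Several of the 27 are alpha-defensin genes with near-identical copies, so they are not separate results. In whole epithelium a smaller number of cells of one type and less RNA per cell cannot be told apart, which holds for each result below. Spearman correlations over the tested genes were 0.987 to 0.993 within code SI, 0.991 to 0.995 within code LI and 0.910 to 0.922 between regions.

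**Figure D1:**
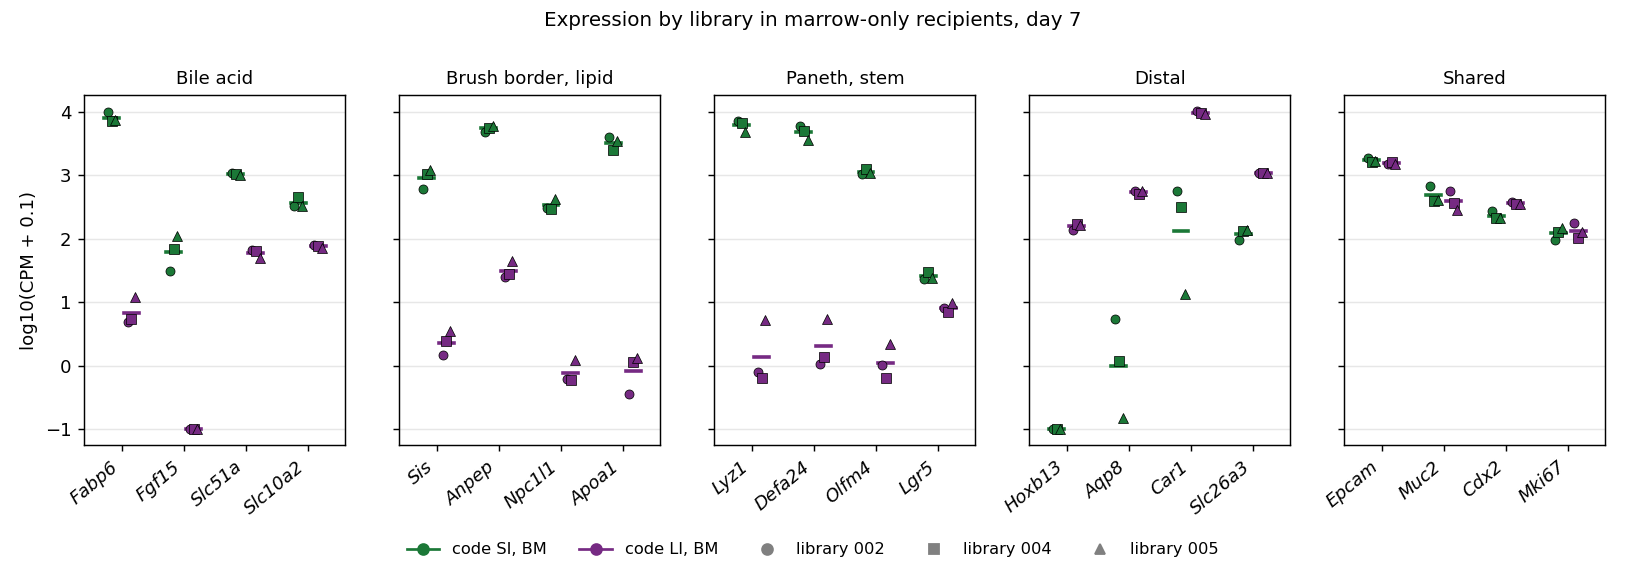
Expression of 20 genes in each marrow-only library, as log10(CPM + 0.1), in 5 panels by function; code SI libraries (green) stand left of code LI libraries (purple), the marker shape gives the library number and the bars are means of the log values. Epcam, Muc2 and Mki67 lie at similar heights in both regions, whereas Fabp6, Lyz1 and Olfm4 stand far higher in code SI and Hoxb13, Aqp8 and Car1 in code LI.

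Genes that recover bile acids and export sterols were a code SI programme. Of 18 tested genes for bile acid and sterol handling, 15 were higher in code SI and 1 in code LI, with a median log2 fold change of 3.62, against a median of 0.00 over all tested genes. Fabp6 (ENSMUSG00000020405.4, GRCm38 chr11:43596049-43601540), the cytosolic carrier of bile acids in ileal enterocytes, had 9995, 7270.3 and 7440.2 CPM in code SI libraries 002, 004 and 005, against 4.84, 5.34 and 11.9 CPM in code LI. No library of one region came near the other, and the log2 fold change was 10.08 ± 0.40 (SE, n = 3 each, edgeR adjusted p = 3.92e-09). Scaled to transcript length, Fabp6 was the most abundant nuclear transcript of code SI epithelium at 38618 ± 5073 TPM (length-scaled transcript abundance, SD, n = 3).

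The other steps of bile acid uptake differed less. Slc10a2, the apical sodium-dependent bile acid transporter, had 334, 459 and 334 CPM in code SI against 80.6, 78.3 and 72.4 CPM in code LI (log2 fold change 2.24 ± 0.14, SE, edgeR adjusted p = 1.11e-07). Slc51a, one subunit of the basolateral exporter, had 1076, 1042 and 1027 CPM in code SI against 67.3, 65.0 and 50.1 CPM in code LI (4.07 ± 0.14 on the log2 scale, edgeR adjusted p = 1.70e-09). Its partner Slc51b had 362, 284 and 266 CPM in code SI against 30.7, 33.5 and 33.9 CPM in code LI. Neither pair of groups overlapped, so the uptake carrier and the exporter were present in both regions at unequal levels. Nr1h4, the bile acid receptor FXR, had 185, 239 and 160.3 CPM in code SI against 91.9, 115 and 107 CPM in code LI, a log2 difference of 0.85 ± 0.15 (SE, edgeR adjusted p = 0.000673).

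Fgf15 and Nr0b2, both known targets of that receptor, are given next. Fgf15 (ENSMUSG00000031073.6, GRCm38 chr7:144896531-144900953), the hormone that reports ileal bile acids to the liver, had 30.6, 68.3 and 112 CPM in code SI and no count in any code LI library. Against a floor of 3 counts over the code LI group it was at least 1548-fold higher in code SI (edgeR adjusted p = 2.25e-06). Its code SI libraries spread widely, with library 005 the highest and library 002 the lowest. Nr0b2, the repressor SHP, followed with a log2 fold change of 6.49 ± 0.60 (SE) at 2.85 to 8.95 CPM in code SI and 0.0391 to 0.102 CPM in code LI.

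Sterol transporters of the apical membrane were likewise on the code SI side. Npc1l1, through which cholesterol enters enterocytes, had 308, 292 and 428 CPM in code SI against 0.509, 0.494 and 1.13 CPM in code LI (log2 fold change 8.81 ± 0.27, SE, edgeR adjusted p = 7.21e-10). Abcg5 and Abcg8, which together return sterols to the lumen, had log2 fold changes of 6.07 and 7.14, and Soat2, which esterifies cholesterol, one of 5.51. Abcc3, a basolateral exporter of conjugates, was the only member higher in code LI, with 104, 107 and 82.3 CPM in code SI against 553, 516 and 465 CPM in code LI (log2 fold change -2.42 ± 0.13, SE). Abcc4 and Abca1 did not pass the test, with log2 fold changes of -0.26 and 0.59.

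Promoters of 4 genes that were high in code SI and 2 that were high in code LI are shown as the DNA that accompanies these differences. The 150 bases before the RefSeq transcription start (GRCm38.p6) are written 5′ to 3′ on the strand of the gene, and capitals mark matches to any of 4 short motifs: a part of the HNF1 site (GTTAAT), an HNF4 site (CAAAGTCCA), a CDX site (TTTATG) and a GATA site (AGATAA), on either strand.
Fabp6 (chr11:43601563-43601712, minus strand): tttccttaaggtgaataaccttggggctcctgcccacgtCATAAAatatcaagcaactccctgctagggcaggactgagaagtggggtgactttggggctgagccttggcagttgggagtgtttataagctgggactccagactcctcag
Sis (chr3:72967864-72968013, minus strand): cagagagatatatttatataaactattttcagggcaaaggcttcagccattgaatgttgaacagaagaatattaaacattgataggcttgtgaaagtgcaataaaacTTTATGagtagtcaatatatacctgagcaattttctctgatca
Gip (chr11:96024395-96024544, plus strand): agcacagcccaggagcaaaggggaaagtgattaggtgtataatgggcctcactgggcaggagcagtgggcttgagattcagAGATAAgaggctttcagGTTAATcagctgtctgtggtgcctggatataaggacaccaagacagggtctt
Npc1l1 (chr11:6230246-6230395, minus strand): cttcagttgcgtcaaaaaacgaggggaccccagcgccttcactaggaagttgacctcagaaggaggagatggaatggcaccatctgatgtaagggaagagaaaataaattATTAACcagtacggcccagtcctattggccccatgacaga
Aqp8 (chr7:123462144-123462293, plus strand): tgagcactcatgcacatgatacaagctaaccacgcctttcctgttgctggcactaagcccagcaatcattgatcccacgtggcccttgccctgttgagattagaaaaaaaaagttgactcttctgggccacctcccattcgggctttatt
Hoxa13 (chr6:52260881-52261030, minus strand): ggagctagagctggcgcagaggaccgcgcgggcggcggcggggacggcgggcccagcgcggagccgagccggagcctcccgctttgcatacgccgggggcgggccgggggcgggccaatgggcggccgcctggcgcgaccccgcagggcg

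Fabp6 held a CDX match on the opposite strand 111 to 106 bases before the start, and Sis, the sucrase-isomaltase gene, one 43 to 38 bases before it. Gip, a hormone gene of upper intestinal K cells, held a GATA match 69 to 64 bases and the HNF1 letters 52 to 47 bases before the start. Npc1l1 held the HNF1 letters on the opposite strand 40 to 35 bases before the start. None of the matches overlapped another, and the windows of Aqp8 and Hoxa13 held none of these letters. Base composition differed strongly between the windows, with 31.3% G and C for Sis and 82.7% for Hoxa13.

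Over the 250 bases before the start, the HNF4 letters were found in 2.52% of 357 genes at least 4-fold higher in code SI, in 1.23% of 486 genes at least 4-fold higher in code LI, and in 0.525% of 10287 tested genes with a promoter in the table. The GATA letters were found in 14.8% of the code SI genes, 7.61% of the code LI genes and 7.54% of the tested genes. The HNF1 letters were found in 10.6, 7.00 and 5.24% of the same 3 sets, and the CDX letters in 10.6, 13.6 and 7.63%. Over all 27018 genes with a promoter, tested or not, the shares were 0.452% (HNF4), 11.4% (GATA), 7.49% (HNF1) and 12.4% (CDX). Against these, the code LI shares of GATA and HNF1 and the code SI share of CDX were lower. Matches are descriptions of sequence, and binding was not measured.

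Digestive enzymes of the brush border were higher in code SI without exception among those tested. All 19 tested members of 24 listed were called by edgeR (18 by limma-voom, and 0 higher in code LI by either, by DESeq2 or at an unadjusted p below 0.05), 17 of them at least 4-fold, with a median log2 fold change of 5.04. Sis had 600.3, 1056 and 1207 CPM in code SI against 1.38, 2.33 and 3.40 CPM in code LI (log2 fold change 8.57 ± 0.35, SE, edgeR adjusted p = 4.72e-09). Anpep, aminopeptidase N, had 4849.9, 5556 and 6088 CPM in code SI against 25.0, 27.5 and 44.8 CPM in code LI, a log2 fold change of 7.36 ± 0.26 (SE). In both genes code SI library 002 was the lowest of its group, and the regions did not overlap.

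The remaining hydrolases ranged widely. Treh (trehalase), Mme (neprilysin) and Naaladl1 (an ileal dipeptidase) had log2 fold changes of 7.47, 8.93 and 8.38, and Ggt1 (gamma-glutamyltransferase) one of 5.04. Mgam (maltase-glucoamylase) and Mep1a (meprin alpha) were high in both regions, with 1075 to 1780.4 and 928 to 1107 CPM in code SI against 263 to 376 and 419 to 476 CPM in code LI. Enpp7, the alkaline sphingomyelinase, had 43.9, 18.9 and 80.3 CPM in code SI and no count in code LI, at least 1045-fold higher. Asah2, the neutral ceramidase, had 15.7, 9.0 and 32.3 CPM in code SI against 8.56, 8.58 and 7.73 CPM in code LI. Its call was lost without code SI library 005 (log2 fold change 0.55) or code LI library 005 (1.13). Lct (lactase), Akp3, Tmprss15 and Folh1 were too low to be tested.

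Fat absorption followed the same side, with 21 of 23 tested genes higher in code SI, 2 higher in code LI and a median log2 fold change of 1.96. Apoa1, the main protein of high density lipoprotein, had 3957, 2482 and 3538 CPM in code SI against 0.255, 1.03 and 1.25 CPM in code LI (log2 fold change 11.84 ± 0.40, SE, edgeR adjusted p = 1.18e-09). Mttp, which loads lipid onto apolipoprotein B, had 437, 466 and 554 CPM in code SI against 4.84, 4.71 and 5.35 CPM in code LI (6.57 ± 0.14). Apoa4 and Apoc3, further chylomicron proteins, had log2 fold changes of 9.32 and 8.66, and Mogat2, which rebuilds triglyceride, one of 5.44. Fabp2, the intestinal fatty acid binding protein, had 2581, 1203 and 2055 CPM in code SI against 421, 435 and 373 CPM in code LI. The 2 members on the other side were Scarb1, a lipoprotein receptor, at 4.14 to 5.91 CPM in code SI against 21.3 to 28.0 CPM in code LI, and Plin2, a lipid droplet coat protein, with a log2 fold change of -0.52.

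Transporters for sugars, peptides and amino acids gave 19 of 22 tested genes higher in code SI and 2 higher in code LI, with a median log2 fold change of 4.24. Slc5a1, the sodium glucose cotransporter SGLT1, had 906, 1099 and 1139.9 CPM in code SI against 189, 202 and 221 CPM in code LI (log2 fold change 2.32 ± 0.12, SE). Slc6a19, the neutral amino acid carrier of the brush border, had 551, 503 and 633 CPM in code SI against 2.90, 4.22 and 4.68 CPM in code LI (7.10 ± 0.19). Slc6a14, another amino acid carrier, was reversed at 22.8, 18.9 and 9.51 CPM in code SI against 427, 497 and 429 CPM in code LI (-4.75 ± 0.27). So was Slc36a1, a proton-coupled carrier, with a log2 fold change of -1.75.

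Uptake of vitamins and minerals was divided, with 14 of 27 tested genes higher in code SI and 5 higher in code LI. Cubn (cubilin, the ileal receptor for vitamin B12 with intrinsic factor) had 231, 417 and 304 CPM in code SI against 7.44, 5.93 and 6.64 CPM in code LI, and Slc34a2 (a phosphate carrier) had 215, 155 and 173 CPM against 11.1, 6.83 and 6.72 CPM. Slc20a1, another phosphate carrier, had 56.7, 64.2 and 52.5 CPM in code SI against 483, 487 and 689 CPM in code LI (log2 fold change -3.30 ± 0.16, SE). Slc40a1, the iron exporter ferroportin, was also lower in code SI, with a log2 fold change of -1.50. Trpv6, the apical calcium channel, had no count in code SI against 2.85, 2.52 and 3.44 CPM in code LI.

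Genes that make citrulline from glutamine and proline in enterocytes were higher in code SI, as 10 of 14 tested urea cycle and citrulline genes were. Cps1, carbamoyl phosphate synthetase, had 995, 1134 and 1107 CPM in code SI against 14.3, 11.9 and 17.2 CPM in code LI (log2 fold change 6.18 ± 0.17, SE, edgeR adjusted p = 3.34e-10). Otc, which joins carbamoyl phosphate to ornithine, had 163, 164 and 159 CPM in code SI against 17.7, 15.4 and 17.5 CPM in code LI (3.22 ± 0.11). Oat, which makes ornithine, had a log2 fold change of 2.86. Glul (glutamine synthetase) and Ass1, which uses citrulline, were lower in code SI, at -1.51 and -1.05.

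The posterior Hox genes, which mark position along the body axis, drew the sharpest line on the code LI side. Of 39 Hox genes 24 were tested, with 18 higher in code LI and 6 without a call. Their median log2 fold change was -3.84, or -3.00 with genes at 0 set to their bound. Tested Hox genes at 0 in code SI passed the filter only through code LI, which fixed their direction. By edgeR 0 were higher in code SI, also at an unadjusted p below 0.05, and DESeq2 and limma-voom gave 0 too. Hoxb13 (ENSMUSG00000049604.3, GRCm38 chr11:96194316-96197447) had no count in any code SI library against 139.6, 170.1 and 166 CPM in code LI, at least 3388-fold lower in code SI. Hoxa13 (GRCm38 chr6:52257694-52260880) was also at 0 in code SI against 29.0, 30.2 and 32.6 CPM in code LI, and Hoxd13 (GRCm38 chr2:74668310-74671599) at 0 against 16.1, 20.4 and 30.5 CPM. Hoxa10 and Hoxa9 were also at 0 in code SI, at least 903-fold and 682-fold lower in code SI.

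Genes without a count in code SI lay mostly in the posterior paralogue groups. In paralogue groups 9 to 13, 9 of 10 tested genes were higher in code LI. These 9 had no count in code SI, so they passed the filter only through code LI and could only be called higher there. Of all 16 genes in these groups, 15 had no count in code SI and 5, the Hoxc genes, had none in code LI. The exception at 0 was Hoxb9, with 74.7, 55.0 and 40.5 CPM in code SI against 72.5, 67.8 and 76.9 CPM in code LI. Its log2 fold change of -0.38 was not called, and it was called at -0.64 without code SI library 002. In groups 6 to 8, 4 of 6 tested genes were higher in code LI, and in groups 1 to 5, 5 of 8. Of all genes there, 0 of 8 in groups 6 to 8 and 2 of 15 in groups 1 to 5 had no count in code SI. Hoxb7 and Hoxb8 overlapped between regions, with log2 fold changes of -0.08 and -0.15.

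**Figure D2:**
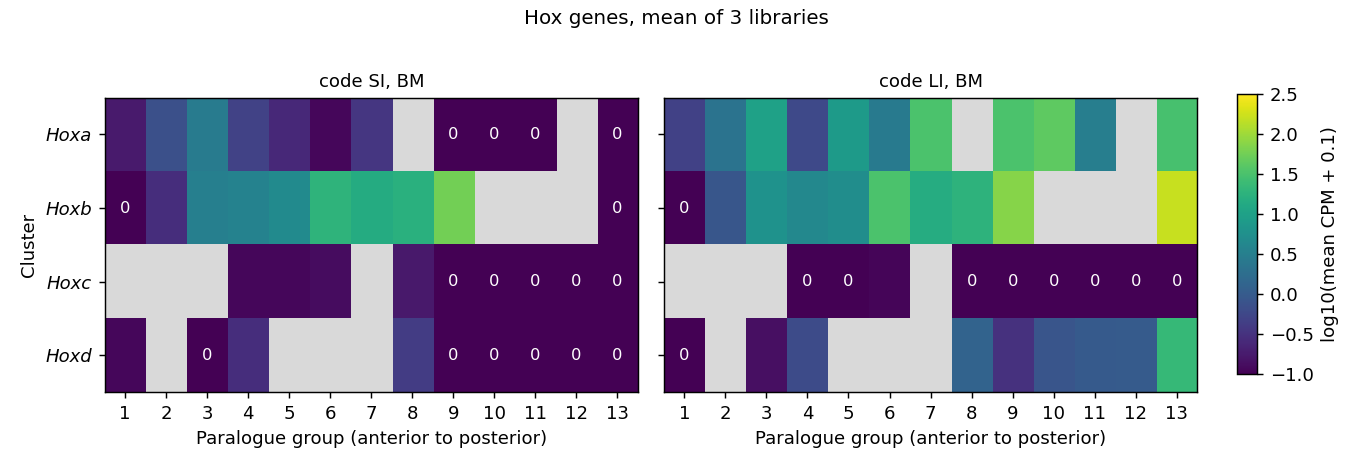
Expression of each Hox gene, as log10(mean CPM + 0.1) over 3 libraries, by cluster (rows) and paralogue group (columns), with the code SI panel before the code LI panel; 0 marks genes without a count and grey squares mark positions without a gene. Groups 10 to 13 are empty in code SI, while Hoxb13 reaches a mean of 159 CPM in code LI.

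Of 31 tested transcription factors with regional roles, 9 were higher in code SI and 11 in code LI, against 20 and 23.0% of all tested genes. Their median log2 fold change was 0.00. Gata4, which keeps jejunal identity and is lost towards the ileum, was low even in code SI, at 8.14, 4.03 and 10.5 CPM against 0.509, 0.225 and 0.156 CPM in code LI (log2 fold change 4.67 ± 0.46, SE, and 5.27 without code LI library 002). Gata5 (113, 121 and 137 CPM against 3.57, 2.60 and 3.44 CPM in code LI) and Maf (133, 136 and 106 CPM against 7.13, 5.52 and 3.79 CPM in code LI) differed as much. Tfcp2l1, Pparg and Klf4 were higher in code LI, with log2 fold changes of -3.16, -3.33 and -1.96. Cdx2, the intestinal master regulator, had 271, 217 and 211 CPM in code SI against 375, 350 and 356 CPM in code LI (-0.67 ± 0.12). Hnf4a, Klf5 and Elf3, general epithelial factors, were not called, with log2 fold changes of 0.09, 0.00 and -0.14.

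Water and salt handling was mostly a code LI programme. Of 39 tested genes, 22 were higher in code LI and 11 in code SI, with a median log2 fold change of -0.60. Aqp8, a colonic water channel, had 5.27, 1.09 and 0.0511 CPM in code SI against 576, 514 and 566 CPM in code LI. Its log2 fold change was -8.01 ± 0.64 (SE, edgeR adjusted p = 1.13e-06), and -9.88 without code SI library 002, the highest of its group. Aqp4, another water channel, did not spread in this way, at 21.4, 29.0 and 24.5 CPM in code SI against 409, 400 and 413 CPM in code LI (-4.07 ± 0.13). Aqp1 was the reverse, with a log2 fold change of 1.89.

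Carriers of sodium, chloride and bicarbonate took both directions. Slc9a3, the sodium proton exchanger NHE3, had 24.6, 31.9 and 24.5 CPM in code SI against 372, 308 and 364 CPM in code LI. Slc26a3, the colonic chloride bicarbonate exchanger, had 97, 131 and 138 CPM in code SI against 1092, 1103 and 1079 CPM in code LI. Its relative Slc26a6 was on the other side, at 140.0, 143 and 140.0 CPM in code SI against 1.48, 1.48 and 1.01 CPM in code LI (log2 fold change 6.70 ± 0.16, SE). Other members of the list were lower in code SI: Scnn1a (a subunit of the epithelial sodium channel), Nr3c2 (the mineralocorticoid receptor) and Hsd11b2 (which protects it from glucocorticoid) had log2 fold changes of -2.26, -1.70 and -2.01. Atp12a, the colonic proton potassium pump, had 3 counts in all code SI libraries together, in library 004, against 120.4, 139 and 202 CPM in code LI. Cftr and Slc12a2, both needed for chloride secretion, moved in opposite directions, at -0.60 and 0.61.

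Of 10 tested carbonic anhydrases, 5 were higher in code LI, and 0 were called higher in code SI by edgeR with TMM scaling and its default filter or by DESeq2 (1 at an unadjusted p below 0.05). With RLE or upper quartile scaling, a filter of 1 CPM or no filter, edgeR called 1. Car8 had a log2 fold change of 0.32 and was called at 0.43 without code SI library 005. Car1 (ENSMUSG00000027556.15, GRCm38 chr3:14766216-14808368) was the most abundant nuclear transcript per length of code LI epithelium, at 19986 ± 1450.3 TPM (SD, n = 3). It had 559, 314 and 13.2 CPM in code SI against 10325, 9429 and 9263 CPM in code LI. The log2 fold change was -5.05 ± 0.91 (SE, edgeR adjusted p = 0.00083), and -5.92 without code SI library 002. Car2 had 17.5, 3.39 and 0.358 CPM in code SI against 1317, 1349.8 and 1497 CPM in code LI (-7.62 ± 0.83, and -9.52 without code SI library 002). Car4 had 129, 118 and 133 CPM in code SI against 259, 283 and 294 CPM in code LI (-1.18 ± 0.11).

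Genes for short chain fatty acid use and ketogenesis were higher in code LI in 17 of 22 tested cases and higher in code SI in 1. Slc16a1 (monocarboxylate transporter MCT1) had 134, 128 and 121 CPM in code SI against 627, 597 and 647 CPM in code LI, and Slc5a8, its sodium-coupled counterpart, had a log2 fold change of -1.70. Most oxidation enzymes differed less, the list's median being -0.68. The exception was Angptl4, an inhibitor of lipoprotein lipase, with 22.2, 24.1 and 39.6 CPM in code SI against 5.04, 2.25 and 2.5 CPM in code LI.

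Enzymes that process foreign compounds were split, with 25 of 54 tested genes higher in code LI and 16 higher in code SI. Cyp2c55, a cytochrome P450 of the colon, had 91.5, 54.6 and 12.4 CPM in code SI against 2698, 2293 and 2327 CPM in code LI (log2 fold change -5.55 ± 0.56, SE, and -6.22 without code SI library 002). Adh1 (alcohol dehydrogenase) and Sult1a1 (a sulfotransferase) had log2 fold changes of -5.00 and -5.30. Cyp3a25 had 90.5, 99.1 and 61.5 CPM in code SI against 0.204, 0.269 and 0.351 CPM in code LI (8.15 ± 0.28), and Cyp4f14 a log2 fold change of 1.97. Members of the Cyp2c, Cyp3a, Ces1 and Ces2 families have close copies, and counts of any one of them are uncertain.

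Among other genes with large differences on the code LI side, chosen by size alone, were secreted and surface proteins. Wfdc2, a secreted protease inhibitor, had 0.182, 0.136 and 0.256 CPM in code SI against 82.0, 100.4 and 94.4 CPM in code LI (log2 fold change -8.93 ± 0.21, SE). Tgm3, a transglutaminase, had 0.409, 0.362 and 0.204 CPM in code SI against 109.7, 139 and 102 CPM in code LI (-8.49 ± 0.23). Thbs4, an extracellular matrix protein, had 3 counts in code SI, all in library 002, against 144, 179 and 168 CPM in code LI. On the code SI side the largest differences chosen in this way included alpha-defensins, Fgf15, Enpp7 and Apoa1.

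Genes of the opposite region were found at low levels that differed between libraries. The sets below were chosen by fold change in these same libraries, which fixed their low mean level in the other region. Only the differences between libraries are described. The 34 called genes with a log2 fold change of -6 or less and a mean of at least 20 CPM in code LI summed to 1.06% of their code LI level in code SI library 002, 0.458% in library 004 and 0.117% in library 005. Hoxb13, Hoxa13 and Hoxd13 stayed at 0 in all 3. The 57 genes with one of 6 or more and that mean in code SI summed to 0.206, 0.228 and 0.367% of their code SI level in code LI libraries 002, 004 and 005. Within these sets code SI library 002 was highest for Car2 and Aqp8, and code LI library 005 for Lyz1, Defa24 and Olfm4. Car1 and Cyp2c55 had smaller fold changes and lay outside the 34, and were also highest in code SI library 002. Car1 was at 5.78, 3.25 and 0.136% of its code LI mean in code SI libraries 002, 004 and 005. The part of these low levels in the fold changes was tested only by leaving out each library, which kept the calls of the genes just named.

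**Figure D3:**
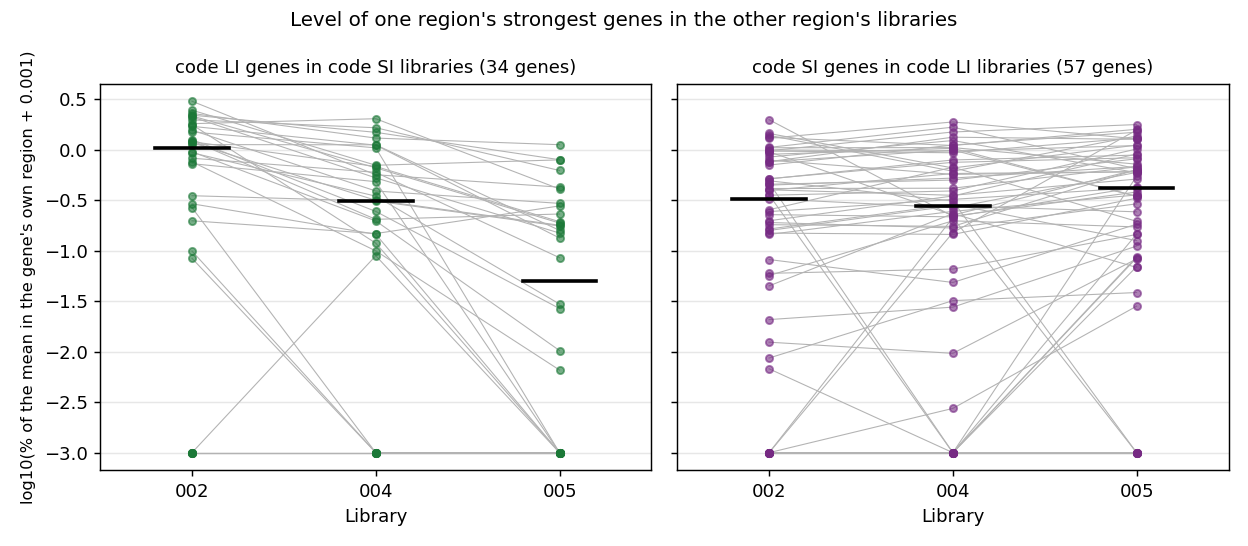
Level of genes of one region in the libraries of the other, as log10 of the percent of the mean in their own region plus 0.001; each point is a gene and each black bar the median of a library. For the 34 code LI genes the median falls between libraries 002, 004 and 005 of code SI at 1.04, 0.312 and 0.0565%, whereas the 57 code SI genes lie at 0.326, 0.278 and 0.420% in the code LI libraries. Both sets were chosen by fold change in these libraries, which fixed their low mean level.

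Paneth cell genes gave the largest list difference, with 20 of 21 tested genes at least 4-fold higher in code SI. Their median log2 fold change was 9.61, or 7.90 with genes at 0 set to their bound. Tested members at 0 in code LI passed the filter only through code SI, which fixed their direction. Lyz1 (ENSMUSG00000069515.6, GRCm38 chr10:117287797-117292868), the Paneth cell lysozyme, had 7191, 6661 and 4860.0 CPM in code SI against 0.713, 0.539 and 5.12 CPM in code LI. Its log2 fold change was 11.41 ± 0.69 (SE, edgeR adjusted p = 1.12e-07), and 13.27 without code LI library 005. Defa24, an alpha-defensin, had 6074, 4992 and 3590.4 CPM in code SI against 0.968, 1.30 and 5.39 CPM in code LI (10.81 ± 0.58, and 12.05 without code LI library 005). In both genes code LI library 005 was the highest of its group and still far below every code SI library.

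The other alpha-defensin genes have near-identical copies, and counts of a single copy are uncertain. Defa29 had 208, 252 and 265 CPM in code SI and no count in code LI. Some other Paneth cell products differed less than the list's median: Itln1 (intelectin) had 3231, 2747 and 2261 CPM in code SI against 61.6, 63.8 and 50.9 CPM in code LI, and Mmp7 (which activates defensins) had a log2 fold change of 4.13. Pla2g2a, a secreted phospholipase, had 6000.0, 5833 and 4682 CPM in code SI against 429.9, 383 and 327 CPM in code LI (3.82 ± 0.17, SE). Nupr1, a stress-induced regulator, was the one member higher in code LI (log2 fold change -0.62), and its call was lost without code SI library 004 (-0.63) or 005 (-0.42) or code LI library 002 (-0.47) or 004 (-0.54).

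Goblet cell genes did not share one direction, with 3 of 29 tested genes higher in code SI, 14 higher in code LI and 12 without a call. The share without a call was 41.4%, against 56.96% of all tested genes. Muc2, the gel-forming mucin, had 687, 398 and 414 CPM in code SI against 569, 369.6 and 283 CPM in code LI. The groups overlapped, and the log2 fold change was 0.27 ± 0.26 (SE, edgeR adjusted p = 0.434). Clca1, Fcgbp and Agr2, other goblet cell products, were not called either, with log2 fold changes of 0.20, 0.17 and 0.12. Tff3, a trefoil peptide, had 1910.0, 1325 and 1393 CPM in code SI against 504, 641 and 589 CPM in code LI (1.38 ± 0.17). Retnlb, a bactericidal goblet cell protein, had 24.9, 10.7 and 1.23 CPM in code SI against 405, 546 and 455 CPM in code LI (-5.27 ± 0.66, and -6.30 without code SI library 002). B3gnt7, which extends mucin glycans, and Muc4, a membrane mucin, had log2 fold changes of -3.19 and -2.11. Without code SI library 005 the count higher in code SI was 5.

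Hormone genes of enteroendocrine cells took both directions. Of 35 tested genes, 21 were higher in code SI and 3 in code LI, and the first count was 15 to 19 with any single library left out (15 without code LI library 005) and 13 without library 004 of both regions. Gip had 16.3, 11.7 and 15.2 CPM in code SI and no count in code LI, at least 323-fold higher. Gcg, the proglucagon gene, had 258, 218 and 172 CPM in code SI against 83.3, 96.4 and 77.1 CPM in code LI (log2 fold change 1.30 ± 0.16, SE). Cck, Sst and Nts, the genes of cholecystokinin, somatostatin and neurotensin, had log2 fold changes of 2.59, 2.56 and 1.63. Insl5, a hormone of colonic L cells, had 3.82, 1.72 and 0.460 CPM in code SI against 29.0, 41.2 and 25.8 CPM in code LI (-4.01 ± 0.44, and -4.87 without code SI library 002). Pyy and Tph1, which makes serotonin, were also higher in code LI at -1.05 and -1.01, while Chga, a general granule protein, had 0.47. Neither Pyy nor Chga was called in the fits of 12 or 18 libraries, nor Chga without library 005 of both regions. Reg4, a secreted lectin, spread widely, at 1467, 729 and 289 CPM in code SI against 919, 962 and 1088 CPM in code LI. It was not called with all 6 libraries (-0.28) and was called at -1.0 without code SI library 002.

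Of 30 listed tuft cell genes 18 were below 1 CPM in all 6 libraries and 17 were tested. Of those tested, 4 were higher in code SI and 1 in code LI, against 20 and 23.0% of all tested genes. Dclk1, a tuft cell kinase, had 1.64, 0.407 and 0.562 CPM in code SI against 1.12, 1.21 and 1.05 CPM in code LI. It was not called (log2 fold change -0.40), but was at -1.25 without code SI library 002, and that fit called 3 tuft cell genes higher in code LI.

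Stem cell and Wnt target genes were higher in code SI in 17 of 29 tested cases and in code LI in 4. Olfm4, a secreted glycoprotein of small intestinal stem cells in mice, had 1056, 1259.5 and 1086 CPM in code SI against 0.917, 0.539 and 2.07 CPM in code LI (log2 fold change 9.82 ± 0.33, SE, edgeR adjusted p = 1.18e-09, and 10.60 without code LI library 005). Lgr5, the receptor that marks crypt base stem cells in both organs, had 23.1, 29.6 and 24.4 CPM in code SI against 8.05, 7.05 and 9.49 CPM in code LI (1.61 ± 0.15). Axin2, a general Wnt target, had 133, 158 and 157 CPM in code SI against 31.4, 29.5 and 29.6 CPM in code LI (2.27 ± 0.10). Smoc2 and Msi1 had log2 fold changes of 2.32 and 3.09. The members on the other side included Ly6a (Sca-1) and Anxa1, both known from regenerating colonic epithelium, at 5.86 to 16.6 and 3.99 to 6.91 CPM in code SI against 165 to 194 and 94.4 to 107 CPM in code LI.

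Genes of the cell cycle were modestly higher in code SI, in 32 of 37 tested cases with a median log2 fold change of 0.65, and 0 were higher in code LI (edgeR, also at an unadjusted p below 0.05 and in each of the 19 alternative fits, DESeq2 included). Mcm6, part of the replication helicase, had 157, 165 and 168 CPM in code SI against 75, 65.1 and 77.8 CPM in code LI (1.13 ± 0.10, SE, edgeR adjusted p = 3.28e-06). Cdc6, which loads that helicase, had a log2 fold change of 1.35. Mki67, the proliferation marker, was one of 5 members without a call, at 95.3, 128 and 150.5 CPM in code SI against 179, 103 and 128 CPM in code LI (-0.17 ± 0.19, edgeR adjusted p = 0.494).

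Targets of p53, the regulator of the DNA damage response, did not move as one. Of 29 tested, 5 were higher in code SI (3 without code LI library 004) and 11 in code LI, against 20 and 23.0% of all tested genes. Sesn1, a stress sensor, had 61.2, 68.3 and 58.4 CPM in code SI against 10.5, 12 and 11.7 CPM in code LI (log2 fold change 2.42 ± 0.12, SE), and Pmaip1, the cell death gene Noxa, had a log2 fold change of 1.19. Trp53inp1 and Gdf15 lay on the other side at -2.13 and -2.17. Cdkn1a, the cell cycle inhibitor p21, had 259.5, 235 and 266 CPM in code SI against 399, 422 and 323 CPM in code LI (-0.63 ± 0.12).

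Epithelial defence was divided by gene family. Of 39 tested genes, 12 were higher in code SI and 22 in code LI, with a median log2 fold change of -1.37. The Reg3 lectins, which kill or hold off bacteria, were on the code SI side: Reg3b had 13641, 12644 and 15319 CPM in code SI against 1770.2, 1634 and 2073 CPM in code LI (2.88 ± 0.15, SE, edgeR adjusted p = 3.54e-08). Reg3g had 5359, 4607 and 6244 CPM in code SI against 374, 269.6 and 495 CPM in code LI (3.79 ± 0.22). The 2 genes have similar sequences, so single counts are uncertain. Ccl25, the chemokine that draws lymphocytes to the small intestine, had 426, 401 and 369.5 CPM in code SI against 3.87, 3.73 and 5.23 CPM in code LI (6.49 ± 0.17). Lypd8, which keeps flagellated bacteria from the colonic surface, had 2890.4, 3305 and 3353 CPM in code SI against 7293, 8454 and 8264 CPM in code LI (-1.37 ± 0.13). Tlr2, Tlr4 and Tlr5, receptors for bacterial products, had log2 fold changes of -2.63, -2.02 and -2.12, and Fut2, which fucosylates the surface, one of -3.17.

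Of 42 tested interferon response genes 23 had no call (54.8%, against 56.96% of all tested genes), 16 were higher in code LI (6 in the fit of 18 libraries) and 3 in code SI (1 to 5 with 1 library left out, 1 of them without code SI library 005, code LI library 002 or code LI library 004 and 5 without code SI library 004). Iigp1, an immunity-related GTPase, had 2.96, 15.6 and 16.6 CPM in code SI against 85.7, 113 and 79.2 CPM in code LI (log2 fold change -3.04 ± 0.42, SE), and Gbp3, a guanylate binding protein, had 2.23, 3.53 and 4.24 CPM against 13.1, 15.7 and 11.5 CPM in code LI. Code SI library 002 was the lowest in both. Ifit2 had a log2 fold change of -2.09, and Cmpk2 was on the other side at 1.45.

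Genes of antigen presentation by MHC class II, which interferon gamma induces in epithelium, overlapped between regions. Cd74, the invariant chain, had 222, 273 and 424 CPM in code SI against 387, 342 and 334 CPM in code LI (log2 fold change -0.26 ± 0.19, SE, edgeR adjusted p = 0.298). It was called at -0.55 without code SI library 005. Of 8 tested genes 1 was called in each direction with all libraries, against 20 and 23.0% of all tested genes. The count higher in code LI was 5 without code SI library 005 and 0 with any other single library left out. Of 25 cholesterol synthesis genes 6 were higher in code SI and 1 in code LI, against 20 and 23.0% of all tested genes. The first count was 3 without library 004 of either region and 12 without code SI library 002. Among junction genes 5 of 20 tested were higher in code SI and 6 in code LI, near the 20 and 23.0% of all tested genes. Single members went both ways. Cldn2, a leaky cation channel, and Cldn15 had log2 fold changes of 1.76 and 1.09, and Cldn8, a sealing claudin, and Cgnl1 had -2.49 and -3.26.

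Genes shared by all intestinal epithelium served as a check of the fractions. The 15 pan-epithelial genes summed to 23669 to 25967 CPM in code SI and 23486 to 26322 CPM in code LI, and 10 of them were not called (66.7%, against 56.96% of all tested genes). Epcam had 1881, 1628 and 1654 CPM in code SI against 1509, 1618 and 1501 CPM in code LI (log2 fold change 0.12 ± 0.12, SE, edgeR adjusted p = 0.464), while Vil1, the brush border villin, was higher in code SI at 0.83. Of 17 T cell markers, 12 were below 1 CPM in all 6 libraries, and the list summed to 4.98 to 15.2 CPM in code SI and 7.79 to 9.64 CPM in code LI. Markers of intraepithelial lymphocytes summed to 50.8, 20.6 and 31.0 CPM in code SI libraries 002, 004 and 005 against 5.66 to 7.79 CPM in code LI. Of 11 tested genes 7 were higher in code SI. Cd7 and Nkg7 lost their calls without code SI library 002 (log2 fold changes 0.72 and 1.18). The same held without code LI library 002 (1.39 and 1.10) or 004 (1.20 and 1.48), and for Nkg7 without code SI library 005 (1.32). Gzma, a cytotoxic granule protease, had 15.1, 1.49 and 6.29 CPM in code SI against 0.560, 0.314 and 0.156 CPM in code LI (log2 fold change 4.49 ± 0.79, SE, and 3.49 without code SI library 002). Erythroid markers were at 4.93 to 30.3 CPM in code SI and 1.13 to 6.32 CPM in code LI, with 3 of 3 tested genes higher in code SI. Of these, Hba-a1 and Hbb-bt lost their calls without code SI library 002 (log2 fold changes 1.45 and 1.13) or code LI library 005 (1.57 and 1.58), Hbb-bt also without code LI library 004 (2.23), and DESeq2 did not call Hbb-bs. Neutrophil markers summed to 1.76 to 2.91 CPM in code SI against 72.2 to 79.4 CPM in code LI. Ly6g, the one called gene, made up most of the code LI sums, at 70.7, 75.5 and 78.7 CPM. Macrophage and dendritic cell markers summed to 26.2 to 45 CPM in code SI against 57.9 to 63.9 CPM in code LI. Of 9 tested, 2 were higher in each region, near the 20 and 23.0% of all tested genes. Their median log2 fold change was 0.48, on the other side from the sums. Pancreatic acinar markers summed to 5.32 to 10.7 CPM in code SI against 61.7 to 91.1 CPM in code LI, with Cela1, an elastase, the one called gene and 9 of 16 markers at 0 in all 6 libraries. Smooth muscle markers summed to 85.3 to 135.5 CPM in code SI against 45.9 to 49.5 CPM in code LI, with 1 of 3 tested higher in each region. Hepatocyte markers summed to 16.4 to 31.0 CPM in code SI against 39.55 to 53.7 CPM in code LI, with 2 of 5 tested higher in each region. All 11 stomach markers were below 1 CPM in every library. The part of these other cells in the differences above was not tested.

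**Figure D4:**
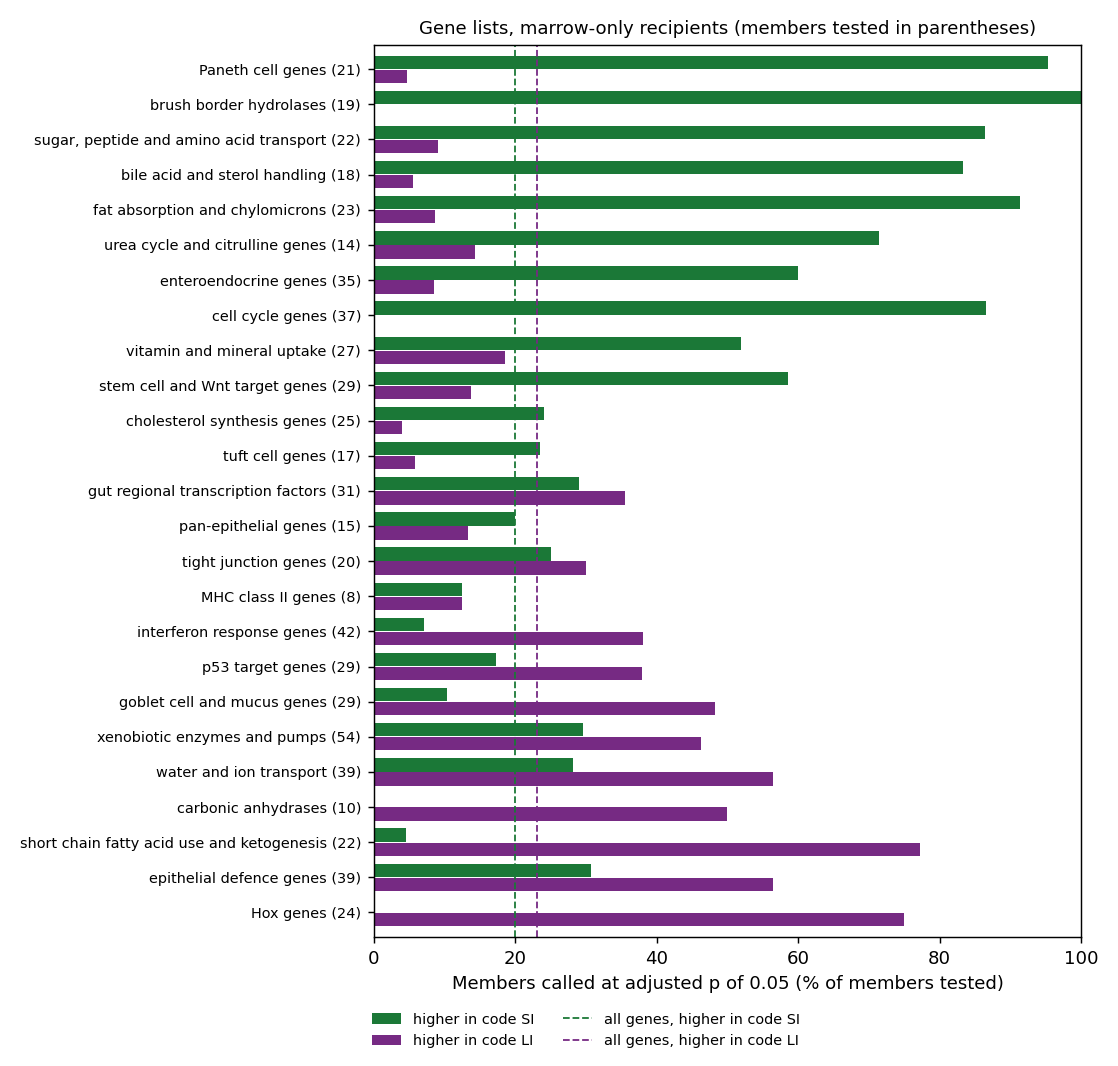
Percent of tested genes called higher in code SI (green) and in code LI (purple) for 25 gene lists with at least 8 tested genes. Lists of markers, such as those of intraepithelial lymphocytes and macrophages, are not drawn. Dashed lines give the shares over all tested genes, 20 and 23.0%. Brush border, Paneth and fat absorption genes reach 100, 95.2 and 91.3% on the code SI side, and Hox and short chain fatty acid genes 75 and 77.3% on the code LI side.

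The same contrast was read in the 6 BMT libraries, which share none with the comparison above. Of 14720 genes tested there, 1161 (7.89%) were higher in code SI and 1730 (11.8%) in code LI, with biological coefficients of variation of 14.8% (code SI) and 11.4% (code LI) in BM mice and 22.4% (code SI) and 20.5% (code LI) in BMT mice. Of 441 genes at least 4-fold higher in code SI of BM mice and tested in both arms, 407 (92.3%) had the same direction in BMT and 356 (80.7%) were called so. Of 518 such code LI genes, 509 (98.3%) had the same direction and 449 (86.7%) were called. The BM comparison held 524 and 692 genes at least 4-fold apart. Those not tested in BMT enter none of these shares, which hold only for genes that passed the filter in both arms. Over all 13863 genes tested in both arms 66.5% had the same direction and 16.7% were called in the same direction in BMT. Among genes called at any size in BM, 82.1% of those higher in code SI and 75.2% of those higher in code LI had the same direction, and 30.3 and 34.2% were called again. Across 13863 genes, which are not independent replicates, Pearson's r between the arms' log2 fold changes was 0.833 and Spearman's rho 0.515.

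Single genes are set side by side for the 2 arms. Fabp6 had a log2 fold change of 10.08 in BM mice and 11.08 in BMT mice and Wfdc2 one of -8.93 in BM and -7.90 in BMT. A region difference that itself differed between the arms was called for 1016 of 15815 genes (6.42%, edgeR interaction test). Among the genes at least 4-fold apart in BM it was called for 126 of 441 on the code SI side and 89 of 518 on the code LI side. Those genes were chosen by BM values that also enter the interaction, so their counts cannot be set against the share over all genes. With 1 library left out the count over all genes was 542 to 1844, lowest without BM code LI library 004 and highest without BMT code SI library 009. Cps1 had 6.18 in BM and 9.41 in BMT (interaction -3.20, edgeR adjusted p = 0.00163), and Slc6a14 had -4.75 in BM and -1.98 in BMT (interaction -2.75, edgeR adjusted p = 0.0273). Ces1g, a carboxylesterase, was called in opposite directions, at -4.59 in BM and 2.82 in BMT. So were Il18, an epithelial cytokine, at -2.07 in BM and 1.56 in BMT, and Nos2, inducible nitric oxide synthase, at 2.96 in BM and -1.12 in BMT.

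**Figure D5:**
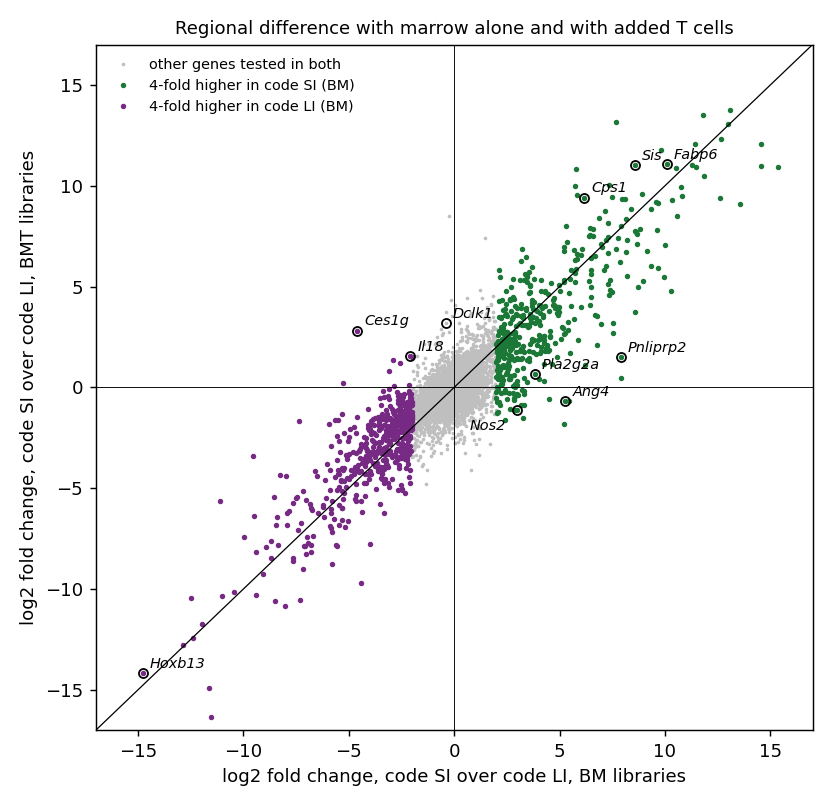
Log2 fold change of code SI over code LI for the 13863 genes tested in both arms, BM on the horizontal axis and BMT on the vertical axis; the line marks equal values. Genes at least 4-fold apart in BM mostly keep their direction in BMT, 407 of 441 on the code SI side and 509 of 518 on the code LI side, against 66.5% of all genes plotted.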

How the data were processed

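Stranded, polyA-selected libraries were made from 500 ng of RNA, per the labels' protocols. Reads were checked with FastQC 0.11.9, aligned with STAR 2.7.0e to GRCm38.p5 and counted with featureCounts 1.6.3, per the submitters' processing notes, and the deposited values are raw counts per gene with the gene length. The strand setting of the counting and the annotation release were not found in the labels. Libraries were grouped by the region and arm in their codes, because titles and codes disagree on the region.

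Gene symbols came from GENCODE vM21. CPM divides by the library total and TPM uses the deposited gene length. The test was edgeR 4.0.16 (R 4.3.3), quasi-likelihood, TMM scaling, default filter on low counts, no replicate block, two-sided, Benjamini-Hochberg adjusted p below 0.05, on 6 libraries for the region and on 12 for the interaction with T cells. It was tested on simulated counts with known folds. DESeq2 1.42.0 and limma 3.58.1 served as alternatives. Totals were 19556124 to 25610937 counts. A group at 0 was given a floor of 3 counts over the group, which covers counting error only. P-values measure the spread between these libraries, which may be technical.

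The members and gene lists were chosen with earlier results of these data known. Named genes were the 12 largest called differences in each direction among genes averaging 20 CPM or more in the higher group whose libraries did not overlap, the 3 called members of each list with the smallest p in each direction, and a set fixed by name. Other list members named were chosen after their values were seen. Some genes that this rule names are not reported here.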

Additional observations from a re-analysis of the deposited data

Results flagged for a closer look

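For 49 of 187 named genes tested in both arms together, the difference between regions itself differed between BM and BMT mice. The test was the edgeR interaction test over 12 intestinal libraries, at an adjusted p below 0.05. The share over all genes tested was 6.42%. Many named genes were chosen by BM values that also enter the interaction, so the 49 cannot be set against that share. Each value below is the log2 fold change of code SI over code LI in BM mice minus that in BMT mice, so that a positive value means a higher code SI to code LI ratio in BM mice than in BMT mice. Groups of 3 libraries were too small for a check of single outlying libraries. All 6 BM libraries were on lane L002 and some BMT libraries were not, and the part of the lane in these values was not tested gene by gene.

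Among uptake, transport and metabolism, the value was positive for Slc7a9 (1.56), Slc6a20a (2.08), Slc40a1 (2.31), Oat (1.54), Slc51a (1.01) and Slc51b (1.33). It was negative for Slc6a14 (-2.75), Slc20a1 (-1.76), Aqp1 (-1.08), Aqp4 (-2.16), Ano1 (-1.14), Angptl4 (-2.14), Slc16a1 (-1.37), Slc5a8 (-2.70), Adh1 (-2.50), Sult1d1 (-2.48), Cps1 (-3.20), Otc (-3.60) and Sis (-2.37).

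Among regulators, secretory and stem cell genes, the value was positive for Creb3l3 (2.40), Nupr1 (1.63), Scg2 (1.83), Tph1 (2.27), Chga (2.22), Pla2g2a (3.21), Vav1 (1.66), Krt18 (1.05), Axin2 (1.30), Mcm3 (1.15), Mcm2 (0.97) and Trp53 (0.92). It was negative for Dclk1 (-3.56) and Ly6a (-1.89).

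Among defence, junction and other genes, the value was positive for Krt15 (2.54), Ccl9 (1.5) and Tnfaip2 (3.34). It was negative for Gbp7 (-1.57) and Cgnl1 (-1.38).

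Among markers of cells outside the epithelium, the value was positive for Cd8a (2.58), Jaml (2.89), Cd244a (3.53), Gzma (5.07), Igha (3.31), Itgam (3.63), Cd68 (2.66) and Vim (1.94). It was negative for Lyve1 (-1.68), Cela1 (-2.04) and Alb (-12.63).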

How the results depend on the processing

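Over 19 alternative fits of the region comparison, 157 of 182 called genes that are named kept their call in each that tested them, and 0 changed direction. Counts of genes ranged over 1920 to 3374 higher in code SI, 2398 to 3669 higher in code LI, 446 to 783 at least 4-fold higher in code SI and 544 to 966 at least 4-fold higher in code LI. The count higher in code SI was 1920 without library 004 of both regions. Upper quartile scaling put 52.57% of calls on the code SI side, against 46.53% with TMM, and moved the median log2 fold change by 0.055. The count of genes whose region difference differed between BM and BMT mice was 1622 with DESeq2, 2024 with lane L002 alone (an alternative chosen after seeing the data), and 542 to 1844 with 1 library left out. The cause of these changes was not tested.

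Whether libraries with the same number in both regions came from 1 mouse is not stated. Correlations of same-numbered libraries' deviations were -0.00036, -0.15 and 0.06, and not every library correlated best with its own number. Deviations from a mean of 3 libraries are tied to each other, so these values cannot decide whether the samples are paired. With the replicate block 2756 genes were higher in code SI and 3275 in code LI. Depth limits genes below about 1 CPM, where floors decide the size of a fold.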
